A study of Homo sapiens with 24 samples.

Results

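Ribosomes are built in the nucleolus, and the 41 genes described here encode proteins of that pathway: RNA polymerase I subunits and factors (5 genes), proteins of the small nucleolar ribonucleoproteins or snoRNPs (8), nucleolar organisers and regulators (6), factors of the small-subunit processome and the pre-40S particle (11) and factors of the pre-60S particle (11). They were taken by gene symbol, from a list drawn up with earlier results of these data known. All 41 are listed in each of the deposited tables of the 4 cell lines, among 11408 genes that the 4 tables share and 16795 genes in at least 1 of them. The genes lie on 18 chromosomes, 7 of them on chromosome 2, and the median span from first to last exon is 16.5 kb against 28.3 kb over the shared genes (hg38).

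The data are gene counts of total RNA from 4 human small cell lung cancer lines: the design calls H209 and H187 ISL1 high and SHP-77 and H82 ISL1 low. ISL1 is a LIM homeodomain transcription factor. Each line was treated for 24 h with 0.1 nM lurbinectedin, an alkylating drug that binds DNA and impairs transcription by RNA polymerase II, or with DMSO, its solvent, which gives 8 groups with 3 libraries each, described as biological triplicates. All 4 lines are tumour-derived cultures grown in RPMI-1640 medium with serum, each a single line, so a comparison between them covers these 4 lines only. H82 is the line with high MYC, the transcription factor known for driving genes of ribosome production.

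As background, RNA polymerase I transcribes the long precursor of the ribosomal RNAs, with UBTF and RRN3 at its promoter. Box C/D snoRNPs methylate the precursor and box H/ACA snoRNPs convert uridines in it to pseudouridine. The small-subunit processome folds and cleaves the 5′ part, and pre-40S and pre-60S factors accompany the particles until export. Ribosomal RNA had been depleted from these libraries, so the measurements are of the messenger RNAs of these proteins and not of ribosome output.

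The promoters of these genes were read for the palindrome CACGTG, the canonical E-box bound by MYC with MAX and by other basic helix-loop-helix factors, because the levels below differ most in the line with high MYC. RefSeq promoters on GRCh38.p14, from 250 bases before to 50 bases after a listed start of the gene, were matched by symbol for 37 of the 41 genes. A gene with several listed starts counted if any of its promoters held the motif. CACGTG (6 letters, the same on both strands) was in 18 of those 37 (48.6%), in 13.1% of the 8719 shared genes with a promoter and in 7.26% of all 35116 promoters of the same length. The last share is per promoter and not per gene. Of 20 copies, 12 began after the listed start of their promoter and 8 before it. The windows below hold the motif in capitals with 12 bases on either side, 5′ to 3′ on the strand of the gene. They are from the 3 genes with the largest excess in H82, from the methyltransferase gene FBL and from UTP20, which has the smallest excess among genes with the motif.
MYBBP1A: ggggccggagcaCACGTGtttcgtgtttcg
RRP9: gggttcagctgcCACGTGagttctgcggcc
MRTO4: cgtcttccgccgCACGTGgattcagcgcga
FBL: tgcgctcttttcCACGTGcgaaagccccgg
UTP20: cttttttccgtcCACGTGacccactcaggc
These lie at chr17:4555340-4555369 (minus strand), chr3:51941892-51941921 (minus strand), chr1:19251807-19251836 (plus strand), chr19:39846356-39846385 (minus strand) and chr12:101280083-101280112 (plus strand). In MYBBP1A, MRTO4 and FBL the motif begins at transcript positions 28, 15 and 7. In RRP9 and UTP20 it begins 5 and 10 bases before the start. A match is a description of these letters and does not show that a factor binds there.

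Total counts per library were 24226553 to 36415190. Of 6 neuroendocrine marker genes, 4 or 5 were listed in each line with summed levels of 674 to 2618 CPM (counts scaled to a common library size), and CHGA was not listed in any line. Fibroblast, leukocyte, endothelial and squamous or airway epithelial markers were listed for 0 to 2 genes per line, with summed levels of at most 9.28 CPM. RRN3 has a further copy on an alternative contig in the gene model of the files and pseudogenes elsewhere, NPM1 has many pseudogenes, and PPAN overlaps a read-through gene, so the counts of these 3 genes are uncertain.

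The first comparison asks how far H82 differs from the other lines before treatment. Under DMSO, 40 of 41 ribosome biogenesis genes were higher in H82 than in the mean of H187, H209 and SHP-77, and none was lower (edgeR quasi-likelihood test, Benjamini-Hochberg adjusted p under 0.05). The median difference was 1.05 on the log2 scale, against -0.00 over all 11408 genes tested. With 12 libraries that differ by line, most genes pass this test: 45.0% of all genes were called higher in H82. At least a 2-fold excess was found for 22 of the 41 genes, against 13.8% of all genes. For 33 of 41, all 3 H82 libraries lay above all 9 DMSO libraries of the other lines, which held for 23.6% of all genes. The summed level of the 41 genes was 9559 to 9671 CPM in the H82 libraries, 5726 to 5812 in SHP-77, 3741 to 3764 in H187 and 3656 to 3769 in H209. Levels set across lines are CPM scaled over the 12 DMSO libraries.

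**Figure D1:**
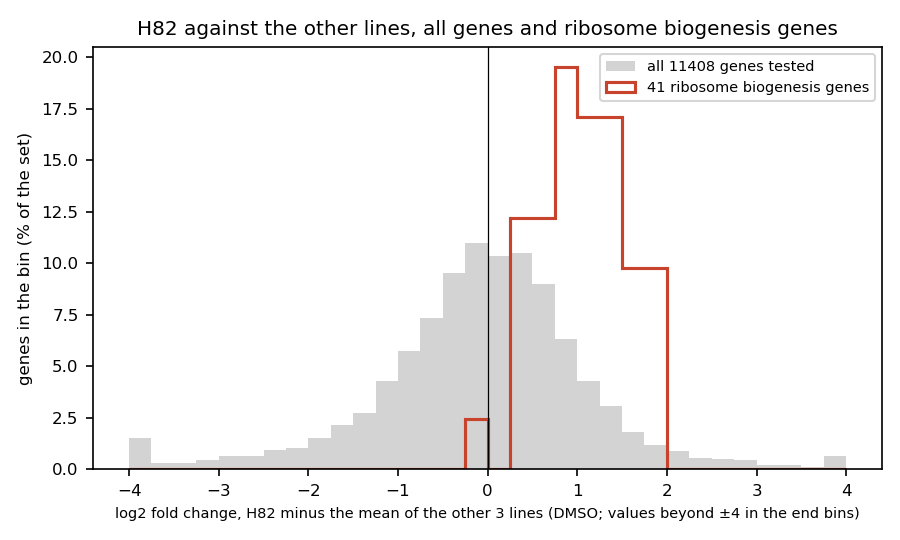
Share of genes (y axis, percent of each set) by log2 difference of H82 from the mean of the other lines under DMSO (x axis), for all 11408 shared genes and for the 41 ribosome biogenesis genes. The ribosome biogenesis genes are centred at 1.05 and all genes at -0.00.

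MYC, at 1946 to 2019 CPM in H82 under DMSO, was at 79.5 to 87.6 CPM in SHP-77 and is not listed for H187 or H209. MYCL was highest in H209 (734 to 747 CPM, against 16.3 to 51.6 CPM in the other lines), and MYCN was at 79.2 to 83.7 CPM in H187, at 3.94 to 4.62 CPM in H82 and not listed for H209 or SHP-77. These levels are scaled within each line. With 1 line at a high MYC level, that level and every other difference between the lines cannot be told apart. Among the 37 genes with a promoter sequence, the median difference in H82 was 1.32 (range 0.34 to 1.90) for the 18 with CACGTG. It was 0.86 (range -0.01 to 1.74) for the 19 without it, so the ranges overlapped widely. Over all shared genes the medians were 0.08 and 0.00.

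**Figure D2:**
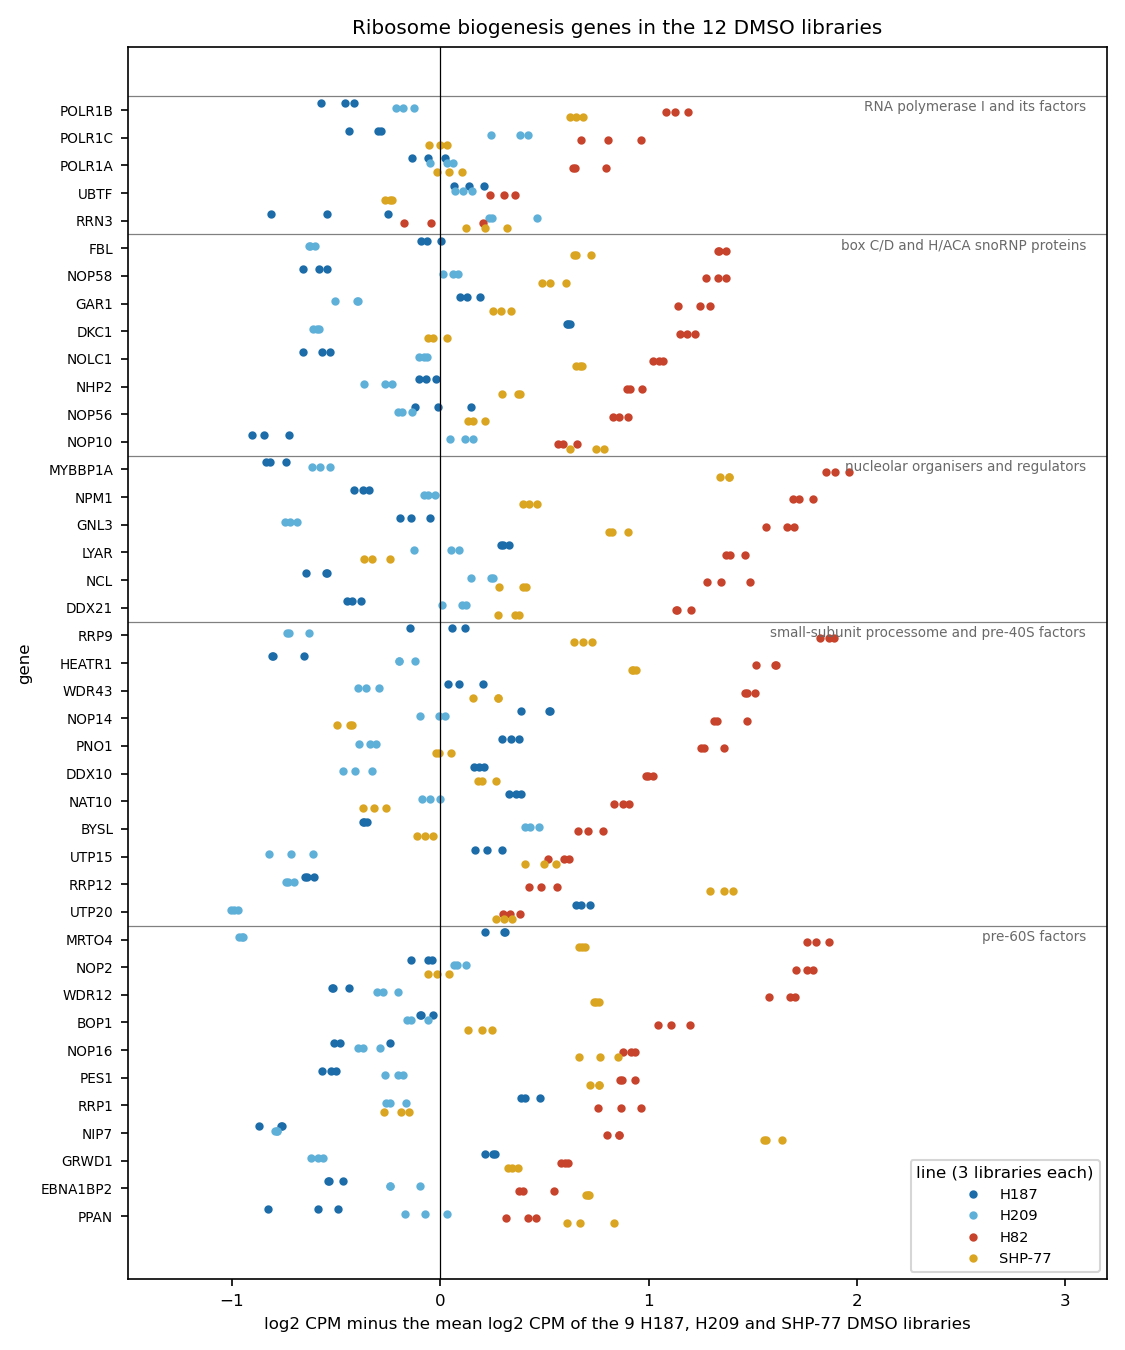
Log2 CPM in each of the 12 DMSO libraries minus the mean of the 9 libraries of H187, H209 and SHP-77 (x axis) for each gene (y axis), grouped by role, 1 point per library. The H82 points are the farthest to the right for 33 of 41 genes, and SHP-77 has the highest mean for 5.

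All 6 nucleolar organisers and regulators were at least 2-fold higher in H82 (13.8% of all genes), with a median difference of 1.53. MYBBP1A, a nucleolar protein that binds MYB and restrains RNA polymerase I, had the largest difference of all 41 genes. It was at 448, 435 and 469 CPM in the H82 libraries, 314, 315 and 306 in SHP-77, 80.7, 78.5 and 83.3 in H209 and 67.5, 72.1 and 68.3 in H187, a log2 difference of 1.90 ± 0.03 (SE, adjusted p = 2.1e-30). H82 was highest and SHP-77 next, and H187 and H209 lay far below both without overlap.

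NPM1 (nucleophosmin), a histone chaperone of the granular component of the nucleolus, was at 1439, 1509 and 1411 CPM in H82, 575, 585 and 601 in SHP-77, 429, 419 and 414 in H209 and 345, 327 and 337 in H187. Its difference was 1.74 ± 0.03 (SE, adjusted p = 4.6e-29). NCL (nucleolin), which binds the ribosomal RNA precursor, was at 1151, 1096 and 1264 CPM in H82, 549, 596 and 600.5 in SHP-77, 535, 539 and 501 in H209 and 289, 309 and 309 in H187. For NCL the SHP-77 and H209 libraries lay close together, and those of H82 stood above both, with a difference of 1.37 ± 0.04. The GTPase gene GNL3 (nucleostemin), LYAR and the RNA helicase gene DDX21 had differences of 1.64, 1.41 and 1.16.

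The snoRNP proteins were higher in H82 in 8 of 8 cases (45.0% of all genes), with a median of 1.12. FBL (fibrillarin), the methyltransferase of box C/D snoRNPs, was at 438, 436 and 449 CPM in H82, 286, 270.4 and 272 in SHP-77, 162, 166 and 173 in H187 and 114, 112 and 112 in H209, a difference of 1.35 ± 0.03 (SE, adjusted p = 4.0e-27). The core proteins NOP56 and NOP58 of the same particle differed by 0.86 and 1.33. DKC1 (dyskerin), the pseudouridine synthase of box H/ACA snoRNPs, had another order: 309, 318 and 302 CPM in H82, 210.0, 208 and 208.5 in H187, 131, 139 and 133 in SHP-77 and 89.3, 90.3 and 90.9 in H209. Its difference was 1.18 ± 0.03, and H187 here lay nearest to H82. Its partners GAR1, NHP2 and NOP10 differed by 1.23, 0.92 and 0.60, and the snoRNP chaperone NOLC1 by 1.05.

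The RNA polymerase I group was the least uniform, with 4 of 5 genes higher (45.0% of all genes) and a median of 0.69. POLR1B, the second largest subunit, was at 194, 180.0 and 185 CPM in H82, 131, 133 and 136 in SHP-77, 75.0, 77.8 and 73.2 in H209 and 57.1, 61.9 and 63.6 in H187, a difference of 1.13 ± 0.03 (SE, adjusted p = 5.0e-23). POLR1A, the largest subunit, differed by 0.69 ± 0.04 and POLR1C by 0.82 ± 0.05. UBTF, which opens the ribosomal DNA repeats, showed a small difference of 0.30 ± 0.03 (SE, adjusted p = 5.1e-10), with 246, 234 and 254 CPM in H82, 218, 229 and 208 in H187, 221, 214 and 208 in H209 and 169, 168 and 165 in SHP-77. The UBTF libraries of H82 overlapped none of the other lines. Against H187 or H209 alone its differences of 0.16 and 0.19 passed the test with trimmed-mean scaling and lost the call when libraries were scaled by total count (0.06 and 0.02).

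RRN3, the initiation factor that brings RNA polymerase I to its promoter, was the 1 gene not called. Its measured level was low in all lines, at 4.91, 5.37 and 6.37 CPM in H82, 6.91, 6.43 and 6.03 in SHP-77, 7.63, 6.51 and 6.57 in H209 and 3.80, 3.15 and 4.65 in H187. As stated above, a further copy and pseudogenes make its counts uncertain, so the true level of RRN3 is not known. The difference was -0.01 ± 0.10 (SE, adjusted p = 0.92). By single lines it was higher in H82 than in H187 (0.51) and lower than in H209 (-0.32), the latter no longer called without H209 DMSO replicate 1, H82 DMSO replicate 1 or H82 DMSO replicate 2 (adjusted p up to 0.12).

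All 11 small-subunit processome and pre-40S genes were higher in H82 (45.0% of all genes), with a median of 1.00. RRP9, the U3 snoRNP protein, led the group with 119.8, 118 and 114 CPM in H82, 51.9, 53.5 and 50.4 in SHP-77, 35.1, 33.6 and 29.2 in H187 and 20.9, 19.6 and 19.4 in H209, a difference of 1.86 ± 0.04 (SE, adjusted p = 1.2e-26). HEATR1 and WDR43, processome proteins linked to transcription of the precursor, differed by 1.58 and 1.48. The other end of the group held UTP20 and RRP12. UTP20, a large scaffold protein of the processome, was at 235, 239 and 246 CPM in H187, 196, 189 and 185 in H82, 181, 185 and 190.1 in SHP-77, with H209 at 75.5, 76.6 and 74.7, so that H187 and not H82 was highest. RRP12, a factor of particle export, was at 275, 283 and 263 CPM in SHP-77, 149.5, 144 and 158 in H82, 68.6, 70.3 and 68.2 in H187 and 64.5, 65.8 and 64.1 in H209. Both had positive differences from the mean of the other lines (0.34 and 0.49), and H209 was the lowest line for each.

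The pre-60S genes were higher in H82 in 11 of 11 cases (45.0% of all genes), with a median of 0.89. MRTO4, a placeholder for the ribosomal stalk protein on the pre-60S particle, was at 209.7, 219 and 203 CPM in H82, 96.2, 97.1 and 95.3 in SHP-77, 74.5, 74.3 and 69.7 in H187 and 31.1, 30.8 and 31.2 in H209, a difference of 1.81 ± 0.03 (SE, adjusted p = 1.2e-28). NOP2, a methyltransferase of the large-subunit RNA, was at 129.6, 123 and 127 CPM in H82, 39.2, 40.9 and 39.7 in H209, 36.0, 37.1 and 38.6 in SHP-77 and 36.4, 36.0 and 33.9 in H187. The other lines lay within a narrow range for NOP2, and H82 alone was high, with a difference of 1.75 ± 0.03 (SE, adjusted p = 1.2e-27). BOP1, PES1 and WDR12, which form the PeBoW complex, differed by 1.12, 0.89 and 1.65.

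Against SHP-77 alone, 33 of 41 genes were higher in H82 (44.7% of all genes), 5 were lower (44.3%) and 3 were not called, with a median of 0.78. The 5 were RRP12 (-0.86), the 60S and 40S assembly factor NIP7 (-0.75), PPAN (-0.31), EBNA1BP2 (-0.26) and NOP10 (-0.12), and RRN3, UTP15 and UTP20 were not called. NIP7 was at 108, 109 and 115 CPM in SHP-77, 66.9, 66.8 and 64.2 in H82, 21.8, 20.2 and 21.8 in H187 and 21.5, 21.4 and 21.3 in H209. EBNA1BP2, a pre-60S factor, was at 126, 127 and 126 CPM in SHP-77, 100.4, 113 and 102 in H82, 72.2, 65.5 and 65.4 in H209 and 53.4, 55.9 and 53.3 in H187. PPAN, another pre-60S factor, was at 8.68, 9.72 and 8.32 CPM in SHP-77, 6.78, 7.51 and 7.29 in H82, 5.18, 4.85 and 5.58 in H209 and 3.08, 3.89 and 3.63 in H187. For these 3 genes every SHP-77 library lay above every H82 library, and every H82 library above those of H187 and H209.

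Against H187, 40 genes were higher (44.3% of all genes) and UTP20 was lower (-0.34; 44.4% lower among all genes), with a median of 1.16 and 26 genes at least 2-fold higher (18.0% of all genes). Against H209, 40 were higher (43.8%) and RRN3 was lower (45.0%), with a median of 1.27 and 32 at least 2-fold higher (17.6%). Only 12 reached a 2-fold difference against SHP-77 (15.4%). H82 had the highest mean for 34 genes, SHP-77 for 5 and H187 and H209 for 1 each. The lowest mean was in H187 for 20 genes, in H209 for 17, in SHP-77 for 4 and in H82 for 0. Of 41 genes, 33 were called higher in H82 than in each of the other 3 lines separately, against 23.7% of all genes.

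The treated libraries are not those of the DMSO contrast but come from the same lines, in which the drug changed these genes little. They gave 40 genes higher in H82 and 0 lower (45.3% and 45.2% of all genes), a median of 1.06 and 22 genes at least 2-fold higher (13.8%). They are therefore no independent repeat of the difference between lines. Scaling by total count in place of trimmed means moved the median of all genes by -0.10 to -0.17 in these contrasts and left 31 to 40 genes higher in H82 per contrast. Of all 11408 genes, 4270 to 4655 were then higher.

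Per kilobase of exon, NPM1 had the highest level in every line, at 765 CPM per kb in H82, 309 in SHP-77, 221 in H209 and 177 in H187 (DMSO means, n = 3). NCL and FBL were the next 2 in H82, at 431 and 378 CPM per kb. The lowest of the 40 genes with a usable length was PPAN in every line, at 1.40 to 3.53 CPM per kb. The median over the 40 genes was 52.1 CPM per kb in H82, 32.5 in SHP-77, 23.2 in H187 and 17.8 in H209.

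Other genes of the pathway differed in the same direction, though with exceptions. In H82 against the other lines under DMSO, 7 of 9 other RNA polymerase I and SL1 genes, 30 of 37 other processome and pre-40S genes, 39 of 44 other pre-60S genes, 9 of 9 snoRNP assembly factors and 18 of 20 genes of RNase MRP and the nuclear exosome were higher. The numbers lower were 0, 6, 4, 0 and 2. Their medians were 0.97, 0.96, 0.83, 0.66 and 0.58. Of all genes, 45.0% were higher in H82 and 44.2% lower.

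The second comparison asks what lurbinectedin did to these genes within each line. Changes were small: the log2 change was within 0.25 of 0 for 40 of 41 genes in H187, 39 in H209 and all 41 in H82 and in SHP-77. The share of all genes within that width was not counted. In H187, 2 genes rose and 5 fell, where 12.2% of all genes rose and 12.7% fell. In H209, 4 rose and 13 fell, where 22.7% of all genes rose and 22.5% fell. In H82 no gene rose or fell by edgeR's test (1.55% and 1.38% of all genes did), while 11 had an unadjusted p under 0.05 (17.4% of all genes) and 2 fell by the DESeq2 Wald test (1.25%). In SHP-77 none rose and 2 fell (1.98% and 3.21% of all genes). The medians were -0.04, -0.07, -0.03 and -0.01 for the lines in the order just given, against 0.00 over all genes in each line. Called or not, the change was negative for 30, 30, 32 and 26 genes in these lines. It was positive for 11, 11, 9 and 15. The summed level of all 41 was 3780 to 3837 CPM under DMSO and 3680 to 3763 CPM under lurbinectedin in H187. For H209 it was 3891 to 4001 and 3718 to 3799 CPM, and for H82 8924 to 9096 and 8656 to 8735 CPM. For SHP-77 it was 5780 to 5873 and 5626 to 5740 CPM. NPM1 and NCL weigh most in these sums. In bulk libraries, fewer cells that carry a transcript and less of it per cell cannot be told apart. Levels in this comparison are CPM scaled within each line.

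The H82 count depended on 1 library: without DMSO replicate 3, 7 genes fell, while the share of all genes that fell went to 4.25%. In all, 19 genes were called in at least 1 line and 22 in none, where 56.3% of the shared genes were called in at least 1. The lurbinectedin and DMSO libraries did not overlap for 14 genes in H187 (38.8% of all genes), 23 in H209 (52.1%), 9 in SHP-77 (22.0%) and 10 in H82 (21.8%). DDX10, UTP20, NPM1 and NHP2 fell in both H187 and H209, NOP56 rose in both, and no gene of the set was called in opposite directions there. Of all genes, 24.9% were called in H187 and 45.2% in H209. The shares of all genes called in both lines, in the same or in opposite directions, were not counted. Whether the shared calls are particular to these genes was therefore not tested.

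**Figure D3:**
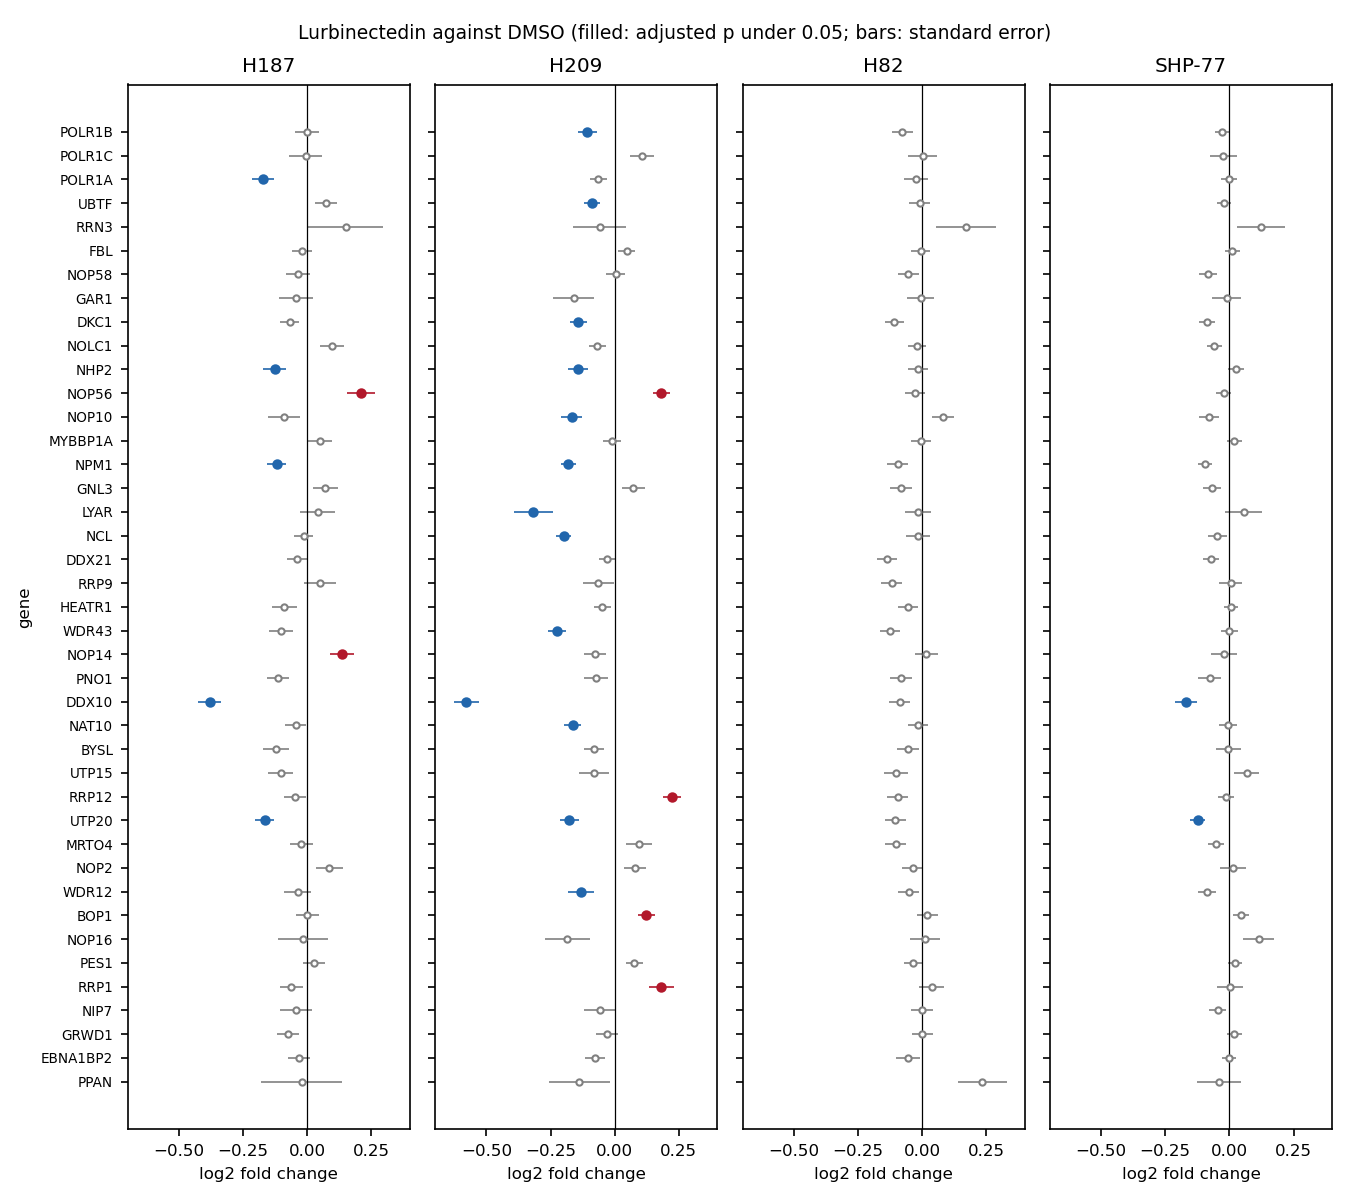
Log2 change under lurbinectedin for each of the 41 genes (y axis) in the 4 lines (panels), with standard errors as bars and filled points for adjusted p under 0.05. Most points lie within 0.25 of 0, and DDX10 is the lowest in H187, H209 and SHP-77.

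DDX10, an RNA helicase of the small-subunit processome and the longest of the 41 genes (chr11:108665025-108940930, hg38, plus strand), changed most. In H209 it was at 42.4, 44.8 and 40.8 CPM under DMSO and 27.6, 30.0 and 28.5 CPM under lurbinectedin, a log2 change of -0.58 ± 0.05 (SE, adjusted p = 1.8e-13). In H187 it was at 62.5, 60.5 and 61.0 CPM under DMSO and 48.6, 48.4 and 44.4 CPM under lurbinectedin, a change of -0.38 ± 0.05 (SE, adjusted p = 3.0e-06). The treated libraries were the lower ones in both lines, without overlap. In SHP-77 it was at 60.6, 64.4 and 61.6 CPM under DMSO and 56.7, 55.0 and 54.4 CPM under lurbinectedin, a change of -0.17 ± 0.04 (SE, adjusted p = 0.022). In H82 it was at 100.3, 99.2 and 98.7 CPM under DMSO and 91.5, 92.8 and 96.3 CPM under lurbinectedin, a change of -0.09 ± 0.04 (SE, adjusted p = 0.26). The H82 groups did not overlap either, but the change did not pass the test. The SHP-77 call was lost without DMSO replicate 2 or lurbinectedin replicate 2 or 3.

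DDX10 spans 276 kb. The 426 to 472 genes with spans from 20% below to 25% above that also had negative medians, of -0.20 in both ISL1-high lines, -0.09 in SHP-77 and -0.08 in H82. A lower change than that of DDX10 was found for 17.7% of them in H187, 10.2% in H209, 22.7% in SHP-77 and 46.0% in H82. With a correction for gene span within each library, the change of DDX10 was -0.15 in H187 and -0.33 in H209, both still called, and -0.06 in SHP-77, no longer called. With the same correction 10 of the 41 genes fell in H187 (11.5% of all genes) and 20 in H209 (21.7%).

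**Figure D4:**
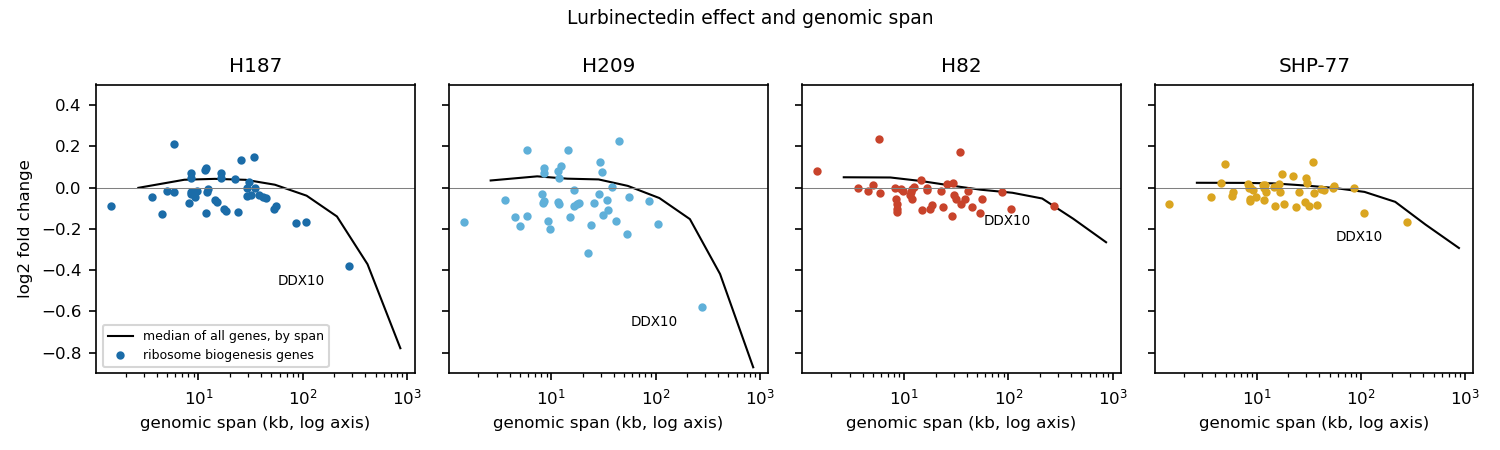
Log2 change under lurbinectedin (y axis) against gene span (x axis, kb, log scale) in each line, with the 41 genes as points and the median of all genes by span as a line. DDX10, at 276 kb, is the point farthest to the right.

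Across genes, the rank correlation of span with change was -0.36 over the 41 genes in H82, -0.23 in H187, -0.11 in SHP-77 and -0.07 in H209. Over all genes it was -0.31, -0.25, -0.27 and -0.25. Genes are not independent replicates, and the points of a line share its 6 libraries. Without DDX10 the values over 40 genes were -0.33, -0.17, -0.04 and -0.00.

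UTP20, the second longest gene at 106 kb (chr12:101280127-101386619, hg38, plus strand), fell in 3 lines. In H187 it was at 240.3, 244 and 249 CPM under DMSO and 213, 222 and 217 CPM under lurbinectedin, a change of -0.17 ± 0.04 (SE, adjusted p = 0.0022). In H209 it was at 80.2, 81.3 and 79.5 CPM under DMSO and 74.4, 71.7 and 67.2 CPM under lurbinectedin, a change of -0.18 ± 0.04 (SE, adjusted p = 1.3e-04). Treated and untreated libraries did not overlap in either line. In SHP-77 the 3 DMSO libraries lay between 182 and 192 CPM and the treated ones were at 176, 174 and 166 CPM, a change of -0.12 ± 0.03 (SE, adjusted p = 0.016) that was lost without DMSO replicate 2 or 3 or lurbinectedin replicate 3. The H82 value was -0.10 ± 0.04, not called.

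NPM1 and NCL were the most abundant genes of the set. NPM1 was at 456, 444 and 440.4 CPM under DMSO and 404, 396 and 382 CPM under lurbinectedin in H209, a change of -0.18 ± 0.03 (SE, adjusted p = 1.2e-06). In H187 it was at 352, 333 and 341 CPM under DMSO and 300.3, 315 and 329 CPM under lurbinectedin, a change of -0.12 ± 0.04 (SE, adjusted p = 0.028) that was lost without DMSO replicate 1 or lurbinectedin replicate 1 or 2. Its values in H82 and SHP-77, not called, were -0.10 ± 0.04 and -0.10 ± 0.03. NCL fell in H209, from 568, 572 and 533 CPM to 497, 492 and 469.8 CPM, a change of -0.20 ± 0.03 (SE, adjusted p = 2.2e-07). Its H187 libraries overlapped, at 295, 315 and 313 CPM under DMSO and 295, 304 and 314 CPM under lurbinectedin, with a change of -0.01 ± 0.04. LYAR, a nucleolar zinc-finger protein at a low level, was at 15.4, 15.9 and 13.7 CPM under DMSO and 12.5, 11.9 and 11.8 CPM under lurbinectedin in H209, a change of -0.32 ± 0.08 (SE, adjusted p = 5.7e-04).

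Among the snoRNP proteins, NOP56 was the gene that rose in both ISL1-high lines. It was at 152, 136 and 124.5 CPM under DMSO and 161, 154 and 161 CPM under lurbinectedin in H187, a change of 0.21 ± 0.05 (SE, adjusted p = 0.0072). In H209 it was at 124, 129.5 and 126 CPM under DMSO and 147, 146 and 137 CPM under lurbinectedin, a change of 0.18 ± 0.03 (SE, adjusted p = 1.6e-05). Every treated library was above every DMSO library in both lines. Its values in H82 and SHP-77, not called, were -0.03 ± 0.04 and -0.02 ± 0.03. Of the 4 H/ACA proteins, 3 fell in H209, DKC1 by 0.14, NHP2 by 0.14 and NOP10 by 0.17, and GAR1 was not called (-0.16 ± 0.08). DKC1 was at 94.9, 95.9 and 96.7 CPM under DMSO and 87.2, 86.4 and 86.9 CPM under lurbinectedin there, and NHP2 fell in H187 as well (-0.13 ± 0.04 (SE, adjusted p = 0.038)), a call lost without DMSO replicate 1 or 2 or lurbinectedin replicate 1 or 3. FBL, at 121, 119 and 119 CPM under DMSO and 121, 128 and 123 CPM under lurbinectedin in H209, was not called in any line, with changes from -0.02 to 0.05.

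**Figure D5:**
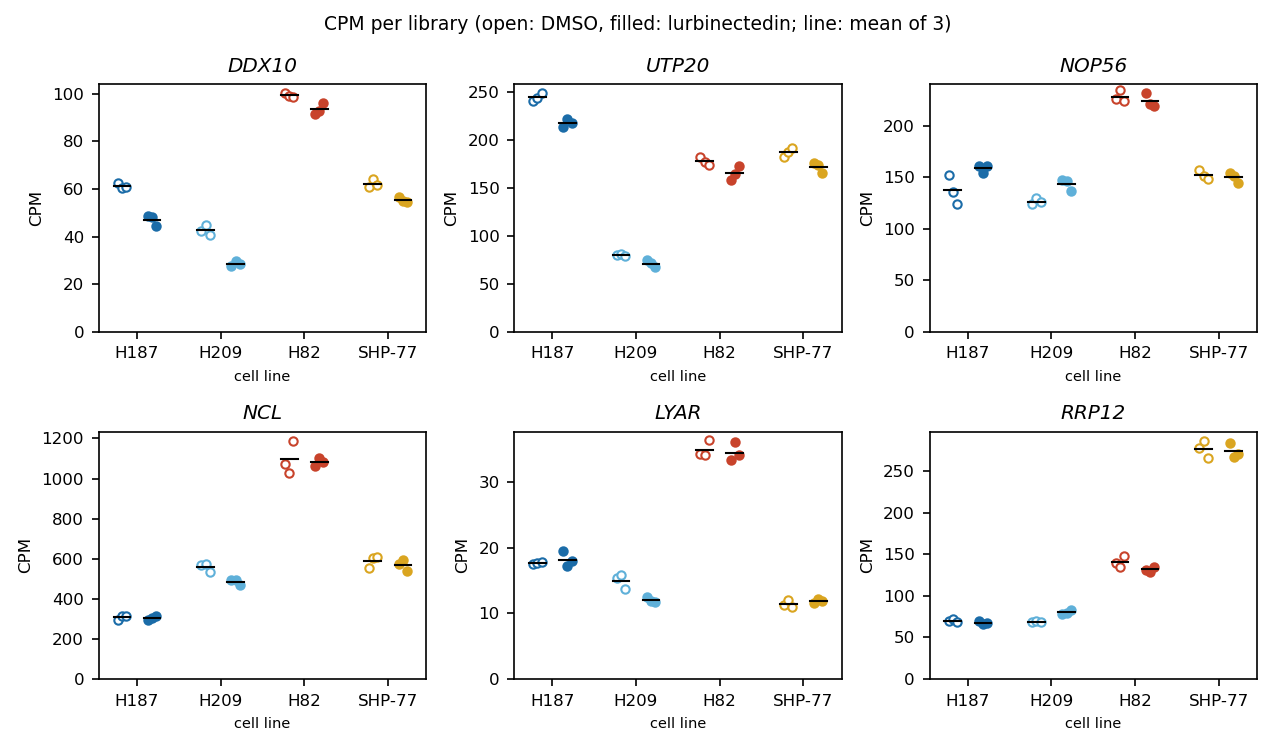
CPM in each library (y axis, scaled within each line) of 6 genes under DMSO (open points) and lurbinectedin (filled points), with the mean of 3 libraries as a line. The treated libraries of DDX10 lie below the DMSO libraries in every line, and those of NOP56 lie above them in H187 and H209.

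Of the RNA polymerase I genes, POLR1A fell in H187, where it was at 163, 171 and 179.8 CPM under DMSO and 149, 152 and 155 CPM under lurbinectedin, a change of -0.17 ± 0.04 (SE, adjusted p = 0.0059). In H209 its change was -0.06 ± 0.03, not called. POLR1B and UBTF fell in H209, by 0.11 and 0.09, and each call was lost when any of 3 libraries was left out (POLR1B: DMSO replicate 2, lurbinectedin replicates 1 and 3; UBTF: DMSO replicate 1, lurbinectedin replicates 1 and 3). POLR1B was at 79.7, 82.6 and 77.9 CPM under DMSO and 73.8, 75.8 and 73.7 CPM under lurbinectedin in H209 and UBTF at 234, 227 and 222 CPM under DMSO and 209.9, 219 and 214 CPM under lurbinectedin. RRN3 was not called in any line, with changes from -0.06 to 0.17.

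The remaining processome and pre-60S calls were in H209 and H187. WDR43 was at 78.6, 83.9 and 80.8 CPM under DMSO and 69.2, 70.8 and 68.5 CPM under lurbinectedin in H209, a change of -0.22 ± 0.04 (SE, adjusted p = 1.5e-06). RRP12 rose in H209, from 68.6, 69.8 and 68.2 CPM to 78.1, 79.7 and 83.6 CPM, a change of 0.22 ± 0.04 (SE, adjusted p = 1.7e-06). These groups did not overlap. RRP1, a pre-60S factor, rose from 30.8, 31.1 and 33.0 CPM to 35.5, 34.9 and 37.1 CPM in H209, a change of 0.18 ± 0.05 (SE, adjusted p = 0.0022). BOP1 rose by 0.12 ± 0.03 (SE, adjusted p = 0.0021) in H209, from 138, 129.7 and 128 CPM to 141, 143 and 146 CPM, and lost its call with a correction for transcript GC content (0.04, adjusted p = 0.35). The acetyltransferase gene NAT10 and WDR12 fell in H209, by 0.16 and 0.13. In H187, NOP14, a processome protein, rose from 63.2, 63.1 and 56.9 CPM to 67.9, 65.9 and 67.2 CPM, a change of 0.13 ± 0.05 (SE, adjusted p = 0.041). Its call was lost in 7 of 12 alternative analyses, among them those without DMSO replicate 3 or any lurbinectedin library.

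Of the MYC family, MYCN fell in H187 by 0.39 and MYCL fell in H209 by 0.22 (adjusted p = 3.1e-06 and 5.2e-10). MYC was not called in H82 (-0.07 ± 0.04) or SHP-77 (-0.08 ± 0.04). The part of these changes in those of the ribosome biogenesis genes was not tested.

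Other genes of the pathway changed in both directions under the drug. Of all genes, 22.7% rose and 22.5% fell in H209, and 12.2% rose and 12.7% fell in H187. In H82 1.55% rose and 1.38% fell, and in SHP-77 1.98% and 3.21%. In H209, 16 of 44 other pre-60S genes rose and 8 fell, 5 of 38 other processome and pre-40S genes rose and 13 fell, and 3 of 9 other RNA polymerase I and SL1 genes rose and 0 fell. RSL24D1 and MAK16, pre-60S factors, rose by 0.29 and 0.26, and the processome genes FCF1 and DDX47 fell by 0.26 and 0.24. POLR1E, a subunit of RNA polymerase I, rose in H209 by 0.20 and in H187 by 0.24. In H187, 4 of 44 other pre-60S genes rose and 3 fell, 1 of 37 other processome genes rose and 2 fell, and 3 of 9 other RNA polymerase I and SL1 genes rose. EFL1, the GTPase that releases EIF6, rose by 0.29 there, and MDN1, the giant ATPase of pre-60S maturation, fell by 0.24. In H82 the calls among these lists were UTP18 (-0.17 ± 0.04 (SE, adjusted p = 0.039)) and MAK16 (-0.16 ± 0.04 (SE, adjusted p = 0.028)), and in SHP-77 there was none. The snoRNP assembly factors had 1 rise and 2 falls in H187 and 2 rises in H209, among 9 genes. The RNase MRP and exosome genes had 1 rise and 2 falls in H187 and 2 rises and 4 falls in H209, among 20.

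The third comparison tests whether the response differed between lines, over 24 libraries. Taking the mean change in the ISL1-high lines minus the mean change in the ISL1-low lines, 4 of 41 genes had a higher response and 5 a lower one, where 15.7% and 15.9% of all genes did. DDX10 (-0.35 ± 0.04 (SE, adjusted p = 2.7e-08)) and NOP56 (0.22 ± 0.04 (SE, adjusted p = 1.6e-04)) had the largest differences. Between the 2 ISL1-high lines, H209 minus H187, 2 genes had a higher response and 6 a lower one, against 5.67% and 5.41% of all genes. LYAR (-0.36 ± 0.09 (SE, adjusted p = 0.008)) and RRP12 (0.27 ± 0.06 (SE, adjusted p = 0.0012)) had the largest differences there. Each class holds 2 lines, so these p-values measure the spread between libraries and not that between lines of a class.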

How the data were processed

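The authors deposited 1 table of raw counts per gene for each of the 4 lines, with gene positions and exon lengths, per the file headers. Per the submitters' processing notes, STAR 2.7.10a, featureCounts, Subread 2.0.3, edgeR 4.2.0 and the hg38 genome were used. The annotation, the strand setting and any low-count filter are not given in the sources used here, and genes with low counts are absent (the smallest row maximum is 15 counts). A further deposited table of the ISL1 classes was not used here.

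Counts were tested in R 4.3.3 with edgeR 4.0.16 (filterByExpr with minimum count 10 and minimum total 15, TMM scaling, quasi-likelihood test, Benjamini-Hochberg threshold 0.05), adjusted over all genes tested. Each line was fitted alone on 6 libraries. Levels between lines used 12 DMSO or 12 lurbinectedin libraries, and differences in response used 24, over the 11408 shared genes. Changes are on the log2 scale, with the fit's standard error (SE). The code was tested on simulated data.

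Alternatives were RLE size factors, no filter, DESeq2 1.42.0, replicate number as a block, omission of each library, total count scaling or a 2-fold threshold (levels), and all libraries in 1 fit, gene span or GC content (drug effects). The GC correction (lowess, span 0.3; GC from GENCODE v29 transcripts for 96.0% of genes) was added after the data were seen. The genes and lists were chosen with earlier results of these data known. Genes with values per library were 9 core genes (NCL, NPM1, FBL, NOP56, DKC1, POLR1A, POLR1B, UBTF and RRN3), up to 4 of the highest and 4 of the lowest called changes per line and per response difference, and 5 each way for H82. NIP7 and NOP10 among the values against SHP-77, and the search for CACGTG, were chosen after values were seen.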

Additional observations from a re-analysis of the deposited data

Results flagged for a closer look

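Every gene below had a different response to lurbinectedin in different lines by a test of the difference itself over 24 libraries (edgeR quasi-likelihood test, adjusted over 11408 genes), and values are differences of log2 changes. Between the ISL1-high and ISL1-low lines, 31.6% of all genes differed, and 9 of 41 ribosome biogenesis genes did. DDX10 had a lower response in the ISL1-high lines by -0.35 (adjusted p = 2.7e-08), with its changes in H187, H209, H82 and SHP-77 at -0.38, -0.58, -0.09 and -0.17. NOP56 had a higher response, by 0.22 (adjusted p = 1.6e-04), with changes of 0.21, 0.18, -0.03 and -0.02. NHP2 differed by -0.14 (adjusted p = 0.0049), RRP12 by 0.14 (adjusted p = 0.0052) and GNL3 by 0.14 (adjusted p = 0.014). These 5 calls were kept in all 27 alternative fits, none of which corrected for gene span. Genes with spans like that of DDX10 had median changes of -0.20 in H187 and H209, -0.08 in H82 and -0.09 in SHP-77. The part of span in the DDX10 difference was not tested. NOP10 differed by -0.13 (adjusted p = 0.0497), WDR43 by -0.10 (adjusted p = 0.0499) and MRTO4 by 0.11 (adjusted p = 0.034), and these lost their calls in 17, 17 and 10 of the 27. NAT10 differed by -0.093 (adjusted p = 0.041), and its calls in the alternative fits were not counted.

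Between H209 and H187, both ISL1 high, 11.1% of all genes differed and 8 of the 41 did. LYAR differed by -0.36 (adjusted p = 0.008) and RRP12 by 0.27 (adjusted p = 0.0012), both kept in all 27 alternative fits. RRP12 rose in H209 (0.22) and was at -0.05 in H187, not called. RRP1 differed by 0.24 (adjusted p = 0.017) and lost its call only without H209 lurbinectedin replicate 3 (adjusted p = 0.057). NOP14 differed by -0.21 (adjusted p = 0.028), DDX10 by -0.20 (adjusted p = 0.035), NCL by -0.19 (adjusted p = 0.041) and UBTF by -0.16 (adjusted p = 0.033), and these lost their calls in 7, 9, 8 and 8 of the 27. NOLC1 differed by -0.17 (adjusted p = 0.025), and its calls in the alternative fits were not counted.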

How the results depend on the processing

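Alternative analyses changed no direction of a called value. The count of ribosome biogenesis genes higher in H82 than in the other lines under DMSO stayed within 1.5 times its value under RLE scaling, the DESeq2 Wald test, total count scaling and each omission of a library. Leaving out the low-count filter removed no gene in any of the 11 comparisons, so it tests nothing. The 2-fold threshold lowered the counts of genes higher in H82 to 22 against the mean of the other lines, 26 against H187, 12 against SHP-77 and 22 under lurbinectedin, with 0 lower against H187, H209 and SHP-77. The 1 gene lower in H82 than in H209 (RRN3) became 0 to 1 when single libraries were left out.

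The counts for lurbinectedin within a line were less stable. In H187, 2 genes rose: 1 did so with the DESeq2 Wald test, 1 with a correction for gene span and 1 to 2 without single libraries. Of all 14023 genes, 1708 rose in the fit used above, 1412 with DESeq2, 1605 with the span correction and 1157 to 1546 without single libraries. The 5 that fell became 10 with the span correction, 8 with a correction for GC content (chosen after seeing the data), 8 with all 24 libraries in 1 fit and 3 to 5 without single libraries. Of all 14023 genes, 1778 fell in the fit used above, 1617 with the span correction, 1987 with the GC correction and 1245 to 1665 without single libraries. With all 24 libraries in 1 fit, 1787 of 11408 genes fell. In H209, 13 fell, and 20 with the span correction, where 3240 and 3130 of all 14421 genes did. In H82, 0 fell, against 2 with DESeq2, 2 with the GC correction, 3 with all 24 libraries in 1 fit and 0 to 7 without single libraries, the 7 without DMSO replicate 3. Of all 13516 genes, 186 fell in the fit used above, 169 with DESeq2, 140 with the GC correction and 53 to 575 without single libraries. With all 24 libraries in 1 fit, 373 of 11408 genes fell. In SHP-77, 2 fell, and 0 to 3 without single libraries, where 456 and 277 to 420 of all 14190 genes did. Of the class difference in response, 5 lower became 2 to 6 without single libraries. Over all 11408 genes, 1819 lower became 1633 to 1870. Of the difference between H209 and H187, 2 higher became 1 to 2 and 6 lower became 1 to 6. Before any library was left out, 647 of all 11408 genes were higher there and 617 lower. The cause of these shifts was not tested.

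Replicate numbers did not pair the libraries: deviations of same-numbered DMSO and lurbinectedin libraries from their group means correlated at -0.32 to 0.25. With the replicate number as a block, 1 gene rose and 3 fell in H187, 1 fell in H82, 1 fell in SHP-77, and 3 had a lower response in the class difference and 3 in H209 minus H187. Of all genes, 1418 of 14023 rose and 1445 fell in H187, 309 of 13516 fell in H82 and 367 of 14190 in SHP-77. Of 11408 genes, 1694 had a lower response in the class difference and 513 in H209 minus H187. The calls of NPM1, NHP2 and NOP14 in H187 and of DDX10 in SHP-77 were among those lost. With 3 libraries per group, a gene not called may still have changed by a small amount.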
